A study of Gallus gallus with 30 samples.

Results

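In the ovary of the laying hen, yolk-filled follicles grow in a pool of similar size until a follicle is taken from the pool into a ranked series that ends in ovulation, a step called follicle selection. The granulosa cells that surround the oocyte are known to change with this step: before it they divide under follicle-stimulating hormone, and after it they gain the machinery for progesterone synthesis and the response to luteinizing hormone. They also secrete ZP3, a main protein of the inner egg coat, and the basement membrane on which they rest. The comparison described here set granulosa layers of large yellow follicles (LYF) against those of F5 follicles. LYF is the last prehierarchical stage and F5 the earliest of the preovulatory series, so by the study's stage names they span selection. The study also describes the pool for selection as smaller follicles than its LYF, so LYF follicles may already have been selected.

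The members were the 3 LYF and the 3 F5 libraries, 6 of the 30 libraries of the series, taken by their stage labels. All came from untreated Luhua hens aged 31 weeks, at the peak of laying, and each library was made from total RNA of an isolated granulosa cell layer after removal of ribosomal RNA. The study called the 3 libraries of a stage biological replicates, but the sources used here do not say whether LYF and F5 follicles came from the same hens or whether follicles were pooled, so p-values measured only the spread between these libraries. The values were FPKM, a fragment count divided by transcript length and by library total. The study's sequencing summary of the libraries was not used here.

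Of 23910 genes in the table, 11997 passed a minimum of 0.5 FPKM in at least 2 libraries of LYF or of F5. The table holds Ensembl identifiers without names, and symbols were taken from the study's own list of 36 genes found among the 100 most abundant at all 10 stages. Of the 36, 32 have a symbol, and all 36 passed the minimum. That list was picked on these libraries for high expression, so it describes abundant transcripts and is not independent evidence for any direction. The receptors and steroidogenic enzymes known for selection, and markers of theca, endothelial, blood and germ cells, were not analysed here, because no identifier could be given their names. Of the granulosa markers looked for, only ZP3 had a name, and it had one because it is abundant at all 10 stages. Its abundance in LYF and F5 therefore could not check the label.

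LYF replicate 1 stood apart from the other 5 libraries. It was the lowest of the 6 libraries at 50.9% of the genes as deposited and at 33.7% after upper quartile scaling, in which a library is divided by the upper quartile of its genes. The 16 mitochondrially encoded genes of the list took 49.5% of its summed FPKM, against 23.8% and 23.1% in LYF replicates 2 and 3. In F5 replicates 1, 2 and 3 the same share was 19.0%, 22.7% and 24.9%. The mean share was 32.1% ± 15.0 in LYF and 22.2% ± 2.98 in F5 (SD, n = 3 each), a difference of -9.88 percentage points (two-sided exact permutation test, p = 0.4, smallest possible 0.1). Without LYF replicate 1 the difference was -1.20 points (exact p = 0.8, smallest possible 0.2). Since FPKM is scaled to the library total, most results are given with and without this library, or as deposited and after upper quartile scaling. Where the fold of a single gene is given without a setting, it is as deposited with all 6 libraries. Such a fold may move when LYF replicate 1 is left out.

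Whole profiles did not sort by stage. Over the genes kept, Spearman coefficients averaged 0.926 within LYF (0.902 to 0.951), 0.947 within F5 (0.941 to 0.951) and 0.939 between the stages (0.879 to 0.965). For 5 of the 6 libraries the nearest library belonged to the other stage, and the closest pair of all was LYF replicate 3 with F5 replicate 3, at 0.965. The exception was LYF replicate 1, nearest to LYF replicate 2 at 0.926. The median standard deviation of a gene on the log2 scale was 0.392 among the LYF libraries and 0.295 among those of F5, and it was 0.212 between LYF replicates 2 and 3.

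**Figure D1:**
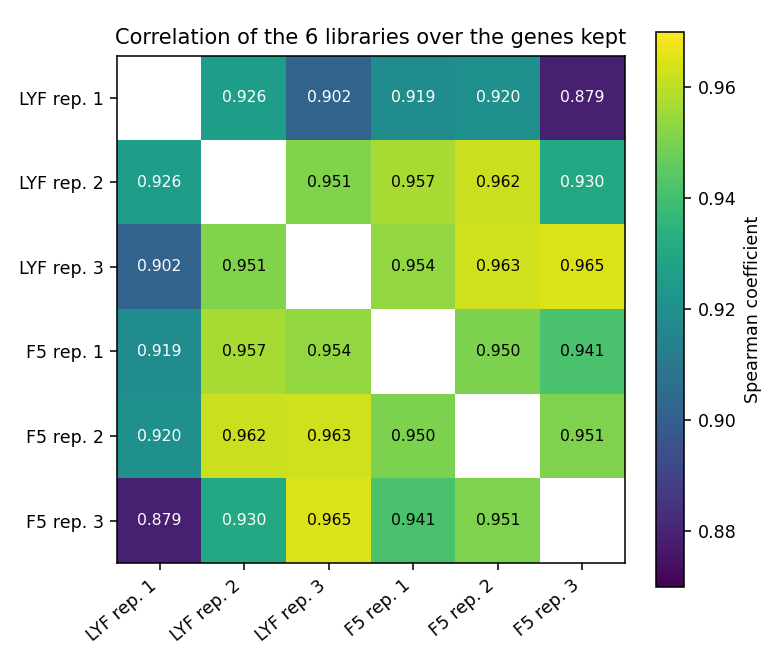
Spearman coefficients of FPKM between the 6 libraries over 11997 genes, with LYF libraries in the upper left and F5 libraries in the lower right block. The row of LYF replicate 1 has the lowest coefficients, from 0.879 to 0.926, and coefficients between the other LYF libraries and F5, from 0.930 to 0.965, reach those within F5, from 0.941 to 0.951.

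No gene passed the test between LYF and F5. With limma on log2(FPKM + 1), at an adjusted p (Benjamini-Hochberg) under 0.05 with a fold over 1.5, 0 of 11997 genes were called (0%), and the lowest adjusted p was 0.98. At an unadjusted p under 0.05 there were 315 genes, 2.63% of those tested, below the share of 0.05 that would pass if no gene differed. After upper quartile scaling there were also 0 called and 342 at an unadjusted p under 0.05. Without LYF replicate 1 there were 0 called and 286 (2.38%). Leaving out LYF replicate 2 or F5 replicate 3 gave 1 call each, of different genes without a symbol, both lower in F5 (log2 fold -4.41, adjusted p = 0.0102, and -3.94, adjusted p = 0.0151). The comparison had 3 libraries a stage, and an adjusted p above the threshold does not show that the stages were alike.

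The differences themselves were small for most genes. The log2 fold of FPKM + 1, F5 minus LYF, had a median of 0.14 and lay between -0.42 and 0.69 for the middle 90% of genes. More genes had a higher mean in F5 than in LYF, 67.8% as deposited, and this share was 55.1% after upper quartile scaling. The median shift was 0.04 after upper quartile scaling and 0.01 without LYF replicate 1. Differences over 2-fold were found for 151 genes in the direction of F5 and 53 in the direction of LYF, 1.70% of the genes together. After upper quartile scaling these were 113 and 76 genes, and without LYF replicate 1 they were 86 and 72.

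A second description asked, gene by gene, whether the libraries of the stages overlapped. For a gene that does not differ, 3 libraries a stage fail to overlap, in either direction, with probability 0.1. The 946 genes that did not overlap as deposited, both directions together, were below that share of 11997. Not overlapping is therefore no evidence of a stage difference by itself. As deposited, 786 genes (6.55%) were higher in every F5 library than in any LYF library, and 160 (1.33%) were lower in every F5 library. The balance of directions moved with the scaling: the counts were 552 (4.6%) and 316 (2.63%) after upper quartile scaling, 694 (5.78%) and 229 (1.91%) when libraries were set to the same sum over genes that are not mitochondrially encoded, and 402 (3.35%) and 434 (3.62%) after quantile normalization. Both as deposited and after upper quartile scaling, 439 genes were higher (3.66%) and 140 were lower (1.17%) in all F5 libraries. With LYF replicate 1 left out, as deposited, the counts were 1000 (8.34%) and 733 (6.11%). Fewer libraries make it easier not to overlap, with probability 0.2 for a gene that does not differ. So an excess of genes higher in F5 was present as deposited. A smaller one was left after upper quartile scaling, with mitochondrially encoded genes out of the sum, and without LYF replicate 1. The excess was gone after quantile normalization. That step gives all libraries the same distribution of values, so the loss there cannot decide whether the excess was real.

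**Figure D2:**
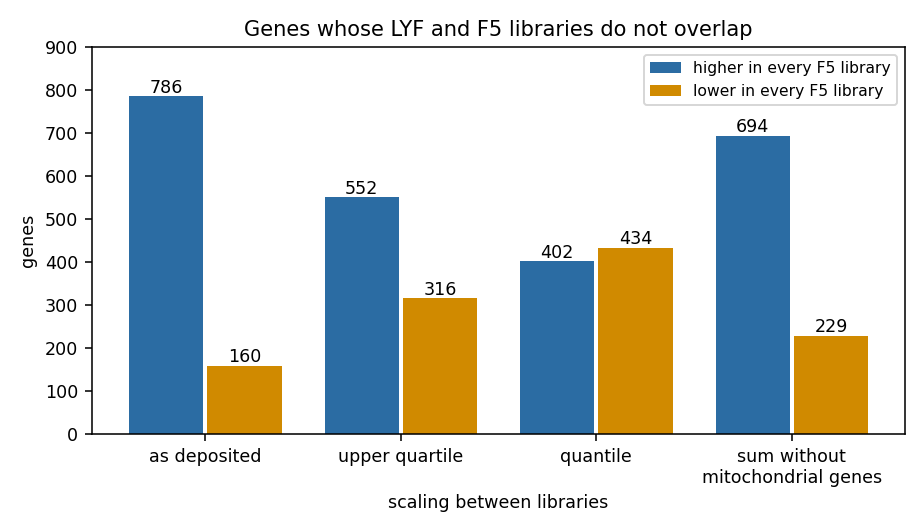
Number of genes (vertical axis) that were higher (blue) or lower (orange) in every F5 library than in any LYF library, for 4 scalings between libraries. The blue bar falls from 786 as deposited to 402 after quantile normalization, while the orange bar rises from 160 to 434.

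Genes that did not overlap in either scaling spanned a wide range of abundance, with medians in the low FPKM range. The 439 higher in F5 had a median stage mean of 3.43 FPKM in LYF and 6.14 FPKM in F5, and their median log2 fold was 0.61. Of these, 51 differed by over 2-fold. The 140 lower in F5 had a median of 9.50 FPKM in LYF and 4.99 FPKM in F5, with a median log2 fold of -0.52, and 16 of them differed by over 2-fold. Over all genes kept the median stage mean was 9.21 FPKM in LYF and 10.2 FPKM in F5.

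**Figure D3:**
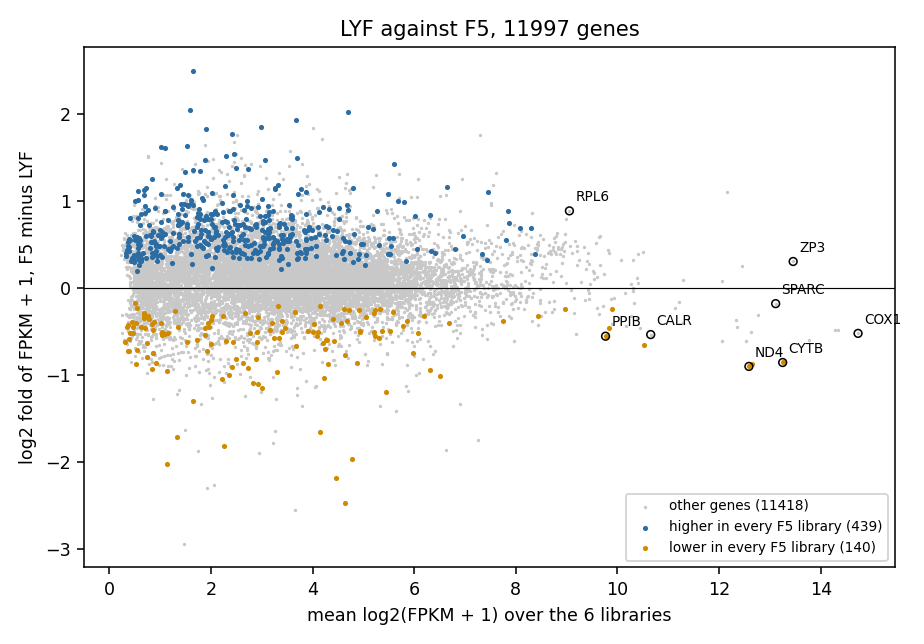
Log2 fold of FPKM + 1, F5 minus LYF (vertical axis), against the mean log2(FPKM + 1) of the 6 libraries, for 11997 genes. Blue points are the 439 genes higher in every F5 library as deposited and after upper quartile scaling, orange points the 140 lower ones, and open circles mark genes with a symbol; the largest folds, from -2.94 to 2.50, lie among genes of low to moderate level.

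Hardly any gene switched between detected and undetected from LYF to F5. The number of genes above 0.5 FPKM was 11144, 11894 and 11562 in LYF replicates 1 to 3, and 12141, 11774 and 11465 in F5 replicates 1 to 3. The libraries of the stages overlapped, with means of 11533 ± 376 in LYF and 11793 ± 338 in F5 (SD, n = 3 each). The difference was 260 (two-sided exact permutation test, p = 0.5). It was 65 without LYF replicate 1 and 148 after upper quartile scaling. Of the genes kept, 11218 passed the minimum in both stages, 272 in LYF alone and 507 in F5 alone. These counts were taken as deposited and include LYF replicate 1, the library with the fewest genes above the minimum. Those kept in a single stage were close to the minimum, with a median of 0.748 FPKM in LYF for the LYF set and 0.76 FPKM in F5 for the F5 set. Only 21 genes were above 0.5 FPKM in all F5 libraries and in no LYF library, none above 3.61 FPKM in any library of F5, and 4 genes showed the reverse, none above 7.41 FPKM.

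The distance between LYF and F5 was set beside that between other nearby columns of the table, each filtered and tested the same way. By column order, LWF against LYF skips SYF and so spans more than 1 step. The titles and descriptions of 6 libraries exchange the labels LWF and SYF, the large white and small yellow follicles, so those stages are named here by column only. At an unadjusted p under 0.05, 33.6% of genes differed for LWF against LYF and 13.9% for SYF against LYF, compared with 2.63% for LYF against F5. F5 against F4 gave 2.37% and F4 against F3 gave 21%. The limma calls were 1893 (14.7%) for LWF against LYF and 0 (0%) for SYF against LYF. There was 1 call for F5 against F4 (0.00833%) and 1 for F4 against F3 (0.00842%). The median absolute log2 fold after upper quartile scaling was 0.41 and 0.31 for LWF and SYF against LYF, 0.21 for LYF against F5, 0.20 for F5 against F4 and 0.30 for F4 against F3. Without LYF replicate 1 the shares at an unadjusted p under 0.05 were 36.3% (LWF), 12% (SYF) and 2.38% (F5). These comparisons share the LYF, F5 or F4 libraries, and their differences from each other were not tested.

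The highest expressed genes were largely the same in LYF and F5. By stage mean, 90 of the 100 most abundant genes of LYF were also among the 100 most abundant of F5. COX1, ATP8 and COX3 ranked 1, 2 and 3 in both stages, and without LYF replicate 1 COX3 ranked 2 and ATP8 3 in LYF. In the RefSeq annotation of GRCg7b the ATP8 and COX3 genes each overlap the ATP6 gene, which ranked 28 in LYF and 43 in F5. How reads were assigned among these genes was not tested, so their ranks are not separate observations. ZP3 ranked 6 in LYF and 4 in F5, and SPARC, a matricellular glycoprotein that binds collagen, ranked 9 and 6. Of the 10 most abundant genes, 8 in LYF (7 without LYF replicate 1) and 5 in F5 were mitochondrially encoded.

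The mitochondrial genome encodes 13 subunits of the respiratory chain and ATP synthase, and all 13 were measured. None was called between LYF and F5 by limma (adjusted p 0.98 for each). The fitted log2 folds were below 0 for all 13, from -0.90 to -0.37 with a median of -0.52, and their size rested largely on LYF replicate 1. That library held 2.097 times (COX3) to 4.40 times (ND6) the mean FPKM of the other 5 libraries, with a median ratio of 2.58 over the 13 genes. Without it the median log2 fold was -0.13, with 4 genes above 0 and 9 below, and after quantile normalization with all 6 libraries it was -0.16.

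Only 3 of the 13 had libraries that did not overlap, all lower in F5, beside 1.33% of all genes in that direction. CYTB, the catalytic core of complex III, measured 27106, 9359 and 8889 FPKM in LYF replicates 1 to 3 and 6605, 7309 and 7871 FPKM in F5. Apart from the extreme LYF library, every LYF value exceeded every F5 value by a modest margin, and the log2 fold moved from -0.86 to -0.33 when LYF replicate 1 was left out. ND4 and ND4L, subunits of complex I whose genes overlap on the mitochondrial genome in the RefSeq annotation of GRCg7b, had the same pattern. ND4 measured 17037, 5926 and 5873 FPKM in LYF and 4115, 4437 and 4980 FPKM in F5 (log2 fold -0.90, SE 0.57, limma unadjusted p = 0.145; -0.39 without LYF replicate 1). ND4L measured 17609, 6245 and 6026 FPKM in LYF and 4571, 4620 and 5047 FPKM in F5 (log2 fold -0.88, SE 0.57; -0.37 without LYF replicate 1). Since the genes overlap, their values are not separate observations. After quantile normalization ND4 and ND4L still did not overlap, and CYTB did.

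The other 10 overlapped between the stages. COX1, the catalytic subunit of cytochrome oxidase, measured 55953, 25526 and 24346 FPKM in LYF and 16296, 25629 and 28167 FPKM in F5. Its F5 libraries lay on either side of LYF replicates 2 and 3. ATP8, an ATP synthase subunit, measured 54505, 16147 and 16674 FPKM in LYF and 16469, 15927 and 20409 FPKM in F5, and its log2 fold turned from -0.48 to 0.09 without LYF replicate 1 and to 0.10 after quantile normalization. ND6, a complex I subunit and the only one of the 13 encoded on the opposite strand, measured 4911, 940 and 929 FPKM in LYF and 1024, 890 and 1800 FPKM in F5. Its fold turned from -0.46 to 0.34 without LYF replicate 1, as did those of ND1 (-0.45 to 0.01) and ND3 (-0.37 to 0.08). A mitochondrially encoded gene of the list without a symbol, ENSGALG00000036956, was lower in every F5 library: it measured 1789, 1573 and 2191 FPKM in LYF and 915, 1493 and 1156 FPKM in F5 (log2 fold -0.65; -0.67 without LYF replicate 1). Its highest LYF library was replicate 3, whereas LYF replicate 1 was the highest for each of the 13 with a symbol. In the other libraries described further on, F4 and F3 against LWF and SYF, its log2 fold was 0.05 (limma adjusted p = 0.923). It was named after its values were seen.

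In ribosomal protein genes LYF replicate 1 was the lowest library instead of the highest. The list names 5, RPS3A and RPS10 of the small subunit and RPL6, RPL23 and RPLP1 of the large subunit, and none was called or separated between the stages. RPL6 measured 143, 360 and 1143 FPKM in LYF and 600, 582 and 1077 FPKM in F5. RPS10 measured 320, 547 and 1570 FPKM in LYF and 766, 847 and 1448 FPKM in F5. For each gene the lowest library was LYF replicate 1 and the 2 highest were the libraries numbered 3 of both stages, and, except for RPLP1, the LYF libraries spanned the whole range of F5. The fitted log2 folds were from 0.44 to 0.89 (median 0.52), and without LYF replicate 1 they were from -0.10 to 0.17 (median 0.08), with RPS3A (-0.04) and RPL23 (-0.10) below 0.

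Summed, the 5 ribosomal protein genes held 0.235%, 0.523% and 1.32% of summed FPKM in LYF replicates 1 to 3 and 0.719%, 0.780% and 1.18% in F5 replicates 1 to 3. LYF replicate 1 held 0.191 to 0.486 times the mean of the other 5 libraries for these genes (median 0.297), compared with a median of 0.695 over all genes kept. EEF1A, the elongation factor that brings aminoacyl-tRNA to the ribosome, was likewise lowest in LYF replicate 1 and highest in the libraries numbered 3 of both stages. It measured 583, 1268 and 2647 FPKM in LYF and 1252, 1495 and 2495 FPKM in F5. Its log2 fold went from 0.42 to -0.13 without LYF replicate 1. EIF4A2, a helicase of translation initiation, varied less, at 649, 851 and 938 FPKM in LYF and 795, 960 and 957 FPKM in F5. RNA quality values for single libraries were not used here, and their part in these patterns was not tested.

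Of the 19 nuclear genes with a symbol, PPIB alone had libraries that did not overlap, beside 1.33% of all genes that were lower in every F5 library. It encodes cyclophilin B, a proline isomerase of the endoplasmic reticulum known for its part in collagen folding. It measured 1264, 1045 and 884 FPKM in LYF and 799, 816 and 566 FPKM in F5, so that the lowest LYF library lay just above the highest F5 library. The mean was 1064 ± 191 FPKM in LYF and 727 ± 140 FPKM in F5 (SD, n = 3 each), a log2 fold of -0.55 with SE 0.31 (limma unadjusted p = 0.109, adjusted p 0.98). The fold was -0.67 after upper quartile scaling and -0.42 without LYF replicate 1, and the libraries did not overlap in either case, but they did after quantile normalization.

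Other genes of the secretory and degradative compartments overlapped. CALR, a calcium-binding chaperone of the endoplasmic reticulum, measured 2653, 1889 and 1451 FPKM in LYF and 1687, 1480 and 957 FPKM in F5 (log2 fold -0.53, SE 0.39). As with PPIB, the LYF replicate 1 value was the highest and the F5 replicate 3 value the lowest. CTSB, a lysosomal cysteine protease, measured 1902, 1728 and 1026 FPKM in LYF and 1304, 1025 and 1207 FPKM in F5. Its log2 fold was -0.35, and LYF replicate 3 lay within the range of F5. HSP90AA1, a cytosolic chaperone, had a log2 fold of -0.13, and APLP2, a membrane protein of the amyloid precursor family, had 0.17. Without LYF replicate 1 the log2 folds were -0.31 for CALR, -0.18 for CTSB, -0.26 for HSP90AA1 and 0.18 for APLP2.

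The egg coat and matrix genes did not separate the stages either. ZP3 measured 7537, 10847 and 12636 FPKM in LYF and 15512, 9385 and 13411 FPKM in F5. The lowest F5 library lay below 2 of the 3 LYF libraries, and the log2 fold was 0.31 with SE 0.59 (0.09 without LYF replicate 1). SPARC measured 10362, 9640 and 8374 FPKM in LYF and 8825, 7330 and 8911 FPKM in F5, a log2 fold of -0.18 that was 0.33 after quantile normalization.

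Genes often used as references for expression were not called and changed sign with the library or the scaling. GAPDH, a glycolytic enzyme, measured 356, 840 and 738 FPKM in LYF and 683, 732 and 853 FPKM in F5, and its log2 fold went from 0.32 to -0.07 without LYF replicate 1. ACTB, cytoplasmic actin, measured 934, 1519 and 1227 FPKM in LYF and 1436, 1140 and 1172 FPKM in F5. Its fold of 0.05 was -0.07 after upper quartile scaling and -0.14 without LYF replicate 1. Both overlapped between the stages. TXN, the small redox protein thioredoxin, had a fold of 0.11 as deposited and -0.01 after upper quartile scaling, and FTH1, the heavy chain of the iron store ferritin, had -0.11. In bulk layers, fewer cells of a type and less RNA per cell cannot be told apart for any of these genes.

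**Figure D4:**
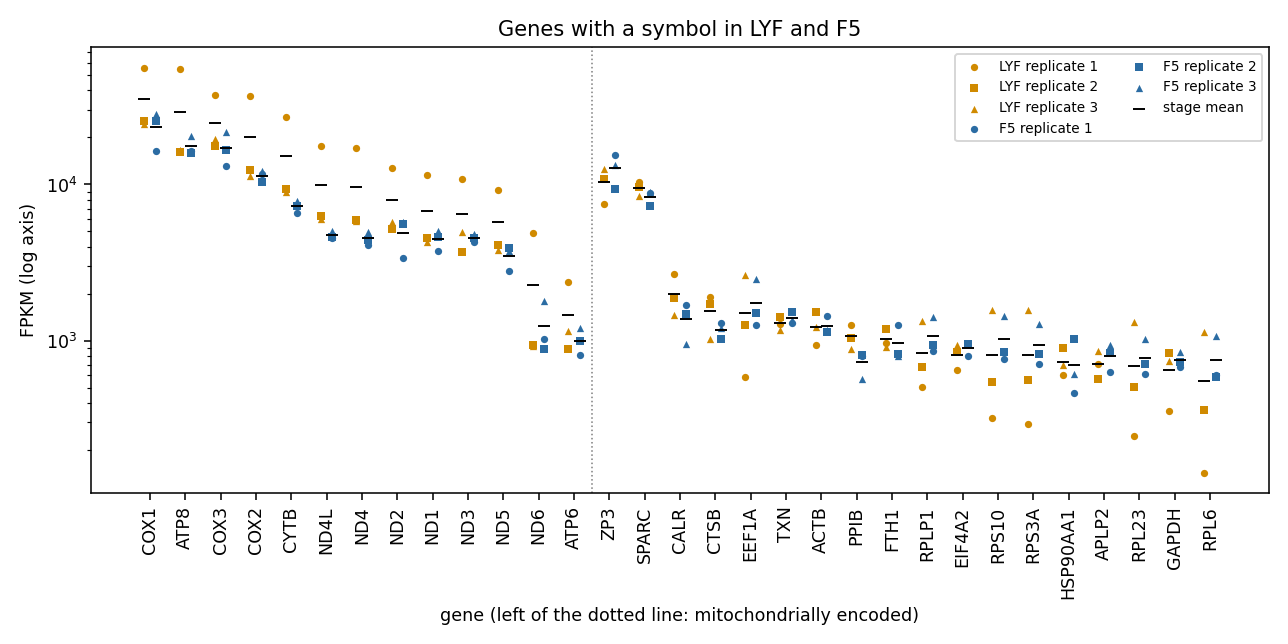
FPKM on a log axis of the reported genes with a symbol in each LYF (orange) and F5 (blue) library, with marker shapes for replicates 1 to 3 and black bars for stage means, mitochondrially encoded genes to the left of the dotted line. LYF replicate 1 (orange circles) sits above every other library for the 13 mitochondrial genes and below every other for the 5 ribosomal protein genes, and only CYTB, ND4L, ND4 and PPIB have stages that do not overlap.

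Among genes without a symbol, the 2 with the largest log2 fold in each direction were taken from those that averaged 5 FPKM or more in the higher stage and whose libraries did not overlap as deposited and after upper quartile scaling. Since these same libraries picked them, their folds and SEs describe them and are not evidence of a difference. ENSGALG00000016934 measured 0.048, 0.876 and 0.172 FPKM in LYF and 14.9, 2.69 and 6.09 FPKM in F5. It was near or under the detection minimum in LYF and above it in all F5 libraries, which also varied widely among themselves (log2 fold 2.50, SE 0.51, limma adjusted p 0.98). ENSGALG00000014835 measured 0.337, 0.387 and 0.761 FPKM in LYF and 7.74, 1.83 and 8.47 FPKM in F5 (log2 fold 2.05, SE 0.46). In this gene F5 replicate 2 lay much closer to LYF than the other F5 libraries did. For genes this low the fold depended on the pseudocount: with 0.1 in place of 1 it was 4.23 for ENSGALG00000016934 and 3.16 for ENSGALG00000014835.

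The 2 genes lower in F5 were expressed at moderate levels in LYF. ENSGALG00000033695 measured 96.7, 49.2 and 40.6 FPKM in LYF and 23.0, 3.02 and 11.2 FPKM in F5 (log2 fold -2.48, SE 0.59; -2.11 without LYF replicate 1). ENSGALG00000011086 measured 84.2, 58.6 and 19.7 FPKM in LYF and 11.6, 14.8 and 4.62 FPKM in F5 (log2 fold -2.18, SE 0.54; -1.76 without LYF replicate 1). Both were highest in LYF replicate 1. Not overlapping as deposited and after upper quartile scaling was the rule that picked them, and they did not overlap under the other scalings either. All 4 genes had adjusted p of 0.98.

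**Figure D5:**
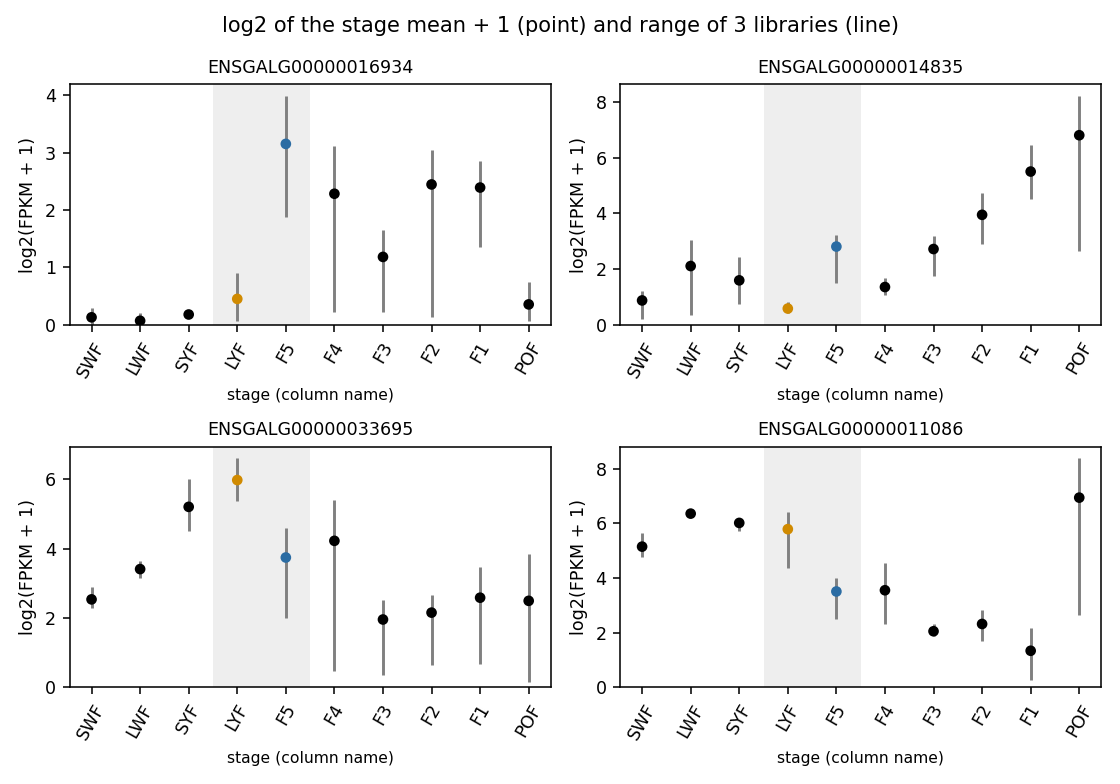
Level of the 4 genes without a symbol at each of the 10 stages, on the log2(FPKM + 1) scale: points give the log2 of the stage mean plus 1 and lines the range of the 3 libraries, with LYF (orange) and F5 (blue) shaded. ENSGALG00000016934 is under 1 FPKM in every library of the columns before F5, and ENSGALG00000011086 has its lowest LYF library (19.7 FPKM) above its highest F5 library (14.8 FPKM).

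Whether these differences were also seen on either side of selection in libraries that the LYF and F5 comparison did not use was asked with the 6 libraries of columns LWF and SYF against the 6 of F4 and F3. In that comparison limma called 1089 genes higher (9.08%) and 3060 lower (25.5%) in F4 and F3. The balance moved with scaling, to 1582 higher (13.2%) and 1943 lower (16.2%) after upper quartile scaling. It also spans more growth than the step from LYF to F5.

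Of the 140 genes lower in every F5 library, 67 (47.9%) were called lower in F4 and F3 and 4 (2.86%) higher, beside 25.5% and 9.08% of all genes. After upper quartile scaling the shares were 30% lower and 2.86% higher, beside 16.2% and 13.2%. Their median log2 fold in these other libraries was -0.63 as deposited, against -0.27 over all genes. After upper quartile scaling that median was -0.47, against -0.06 over all genes. Of the 439 genes higher in every F5 library, 66 (15%) were called higher and 62 (14.1%) lower in F4 and F3 as deposited. Their median log2 fold was 0.01, against -0.27 over all genes. After upper quartile scaling 95 (21.6%) were called higher and 34 (7.74%) lower, with a median of 0.19 against -0.06. So, under both scalings, each set was called in its own direction at a higher share than all genes and in the opposite direction at a lower share, while as deposited the genes higher in F5 were called lower about as often as higher. None of these differences in share was tested.

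The shares were less far from the background when LYF replicate 1 was left out in choosing the genes. Then 727 genes were higher and 534 lower in every F5 library both ways. Of the 534, 169 (31.6%) were called lower and 28 (5.24%) higher in F4 and F3, beside 25.5% and 9.08% of all genes. Of the 727, 85 (11.7%) were called higher and 133 (18.3%) lower, beside 9.08% and 25.5% of all genes. After upper quartile scaling the shares were 20.4% lower and 7.49% higher for the 534, and 16.9% higher and 11.7% lower for the 727. Over all genes they were then 16.2% lower and 13.2% higher.

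Among the named genes, ZP3 rose most in the other libraries. Its mean was 3006 ± 624 FPKM in LWF and 5142 ± 1942 FPKM in SYF, and 16692 ± 7854 FPKM in F4 and 34339 ± 17594 FPKM in F3 (SD, n = 3 each). The log2 fold was 2.53 with SE 0.41 (limma adjusted p = 0.000417), beside 0.31 between LYF and F5. All 5 ribosomal protein genes were called higher as well, with log2 folds from 1.15 to 1.49 as deposited. They were also called higher after upper quartile scaling. Of all genes, 9.08% were called higher as deposited and 13.2% after upper quartile scaling. EEF1A (1.09) and TXN (0.87) were called higher in both settings too, but TXN was not called after quantile normalization. PPIB fell by 0.60 on the log2 scale (limma adjusted p = 0.00746), from 1114 ± 159 FPKM in LWF and 1070 ± 164 FPKM in SYF to 769 ± 151 FPKM in F4 and 674 ± 103 FPKM in F3. Its fold after upper quartile scaling was -0.35 and did not pass (adjusted p = 0.0958). PPIB was also not called without F3 replicate 1 or 3, F4 replicate 1, LWF replicate 1 or SYF replicate 1. It was called with each other single library left out and after quantile normalization.

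Of the 13 mitochondrially encoded genes with a symbol, 3 were called lower in F4 and F3 as deposited: ND3, ND4 and ND4L. That share was not above the 25.5% of all genes called lower there. ND4 was no longer called in several fits with 1 library left out, such as without F4 replicate 1, and stayed called in others. None of the 13 was called after upper quartile scaling or when replicate 3 of F4 and of F3 was left out. The log2 folds of all 13 were below 0 there under both scalings. Of all 11997 genes, 8346 were below 0 as deposited and 6598 after upper quartile scaling. The median of the 13 was -0.54 as deposited, against -0.27 over all genes. After upper quartile scaling it was -0.29, against -0.06. After quantile normalization, by contrast, COX2, CYTB, ATP6, ND3, ND4L, ND5 and ND6 were called lower, beside 1707 of all 11997 genes. ND4 was not called then, so the calls depended on the scaling. CYTB, which did not overlap between LYF and F5, had a log2 fold of -0.54 in the other libraries (adjusted p = 0.0676). Of the 4 genes without a symbol, ENSGALG00000011086 fell by 3.56 on the log2 scale (limma adjusted p = 3.12e-05), and ENSGALG00000016934 rose by 1.34 (adjusted p = 0.0177). ENSGALG00000016934 ranged from 0.171 to 7.65 FPKM in F4 and from 0.169 to 2.15 FPKM in F3. Its lowest library of each stage was thus under the minimum of 0.5 FPKM. ENSGALG00000014835 had a log2 fold of 0.42 (adjusted p = 0.505) and ENSGALG00000033695 one of -1.78 (adjusted p = 0.0747), and neither passed the test.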

How the data were processed

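The deposited table held FPKM values per gene for 30 libraries. The authors removed low-quality, adapter and ribosomal reads, mapped with HISAT2 2.1.0 to GRCg6a and quantified FPKM with StringTie 1.3.3. Neither read counts nor the study's sequencing summary were used here, so depth was not taken into account. From the FPKM values, genes above 0.5 in at least 2 libraries of LYF or F5 were kept, and log2(FPKM + 1) was fitted with limma 3.58.1 (R 4.3.3; trended empirical Bayes, Benjamini-Hochberg over all genes kept, fold over 1.5), a fold that understates the change of low genes. The code was tested on simulated data. Single quantities used exact two-sided permutation tests (scipy 1.17.1). Alternatives were scaling, pseudocount, filter, libraries in the fit, a replicate block and left-out replicates. Named genes were those of the study's list of 36 with a symbol, plus 2 identifiers per direction by size; 1 gene of that list is not reported here. No identifier matched the RefSeq gene table, so most members of the pathway and cell type lists could not be named. All 13 mitochondrially encoded genes had a name, as did 5 of 66 ribosomal protein genes. Each other list had 1 named member or 0 and could not be read as a list. The members, lists and tests were chosen with earlier results of these data known.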

Additional observations from a re-analysis of the deposited data

How the results depend on the processing

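The count of 0 genes called between LYF and F5 held under each scaling, pseudocount (0.1 or 0.5), filter, larger fit (all 30 libraries, or 27 without POF) and fit without a trend, and ranged from 0 to 1 with a replicate left out. It was 1 gene, lower in F5, without LYF replicate 2 (log2 fold -4.41, limma adjusted p = 0.0102) and 1 other gene, also lower, without F5 replicate 3 (log2 fold -3.94, adjusted p = 0.0151); neither has a symbol. At an unadjusted p under 0.05 the larger fits gave 454 and 613 genes and the fit without LYF replicate 3 gave 818. Genes whose libraries did not overlap numbered 946 in both directions as deposited, 613 with a filter at 5 FPKM, where 8302 genes were tested, and 1733 (without LYF replicate 1) to 2653 (without LYF replicate 3) with any 1 of the 6 libraries left out, where fewer libraries have to be apart. Same-numbered libraries of LYF and F5 had deviations correlated at 0.16, 0.08 and 0.44, and differently numbered ones at -0.27 to 0.11. Whether the numbers are pairs, such as follicles of the same hen, cannot be told from these values. The main fit took no pairs. With a replicate block 0 genes were called, and 497 had a limma unadjusted p under 0.05, beside 315 without it. For LWF and SYF against F4 and F3 the block gave 4199 calls beside 4149, 3422 without replicate 3 of F4 and of F3, and 3744 to 4636 with 1 library left out. There, quantile normalization gave 1716 higher and 1707 lower; CYTB, COX2, ATP6, ND5, ND6, GAPDH, ACTB, HSP90AA1 and CTSB then passed as lower, and ND4 and TXN no longer passed. The cause was not tested. The sets, pairs of nearby columns and ranks without LYF replicate 1 were added after seeing the data. With 3 libraries a stage and no counts, differences in low genes are limited by a depth that was not taken into account.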
